A study of Mus musculus with 2 samples.

Results

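Histone acetylation is set by enzymes that add acetyl groups to lysines of histone tails (writers), enzymes that take them off (erasers) and bromodomain proteins that bind them (readers). The 32 genes described here were listed by name, with no measured value in the rule: 11 zinc-dependent histone deacetylases (Hdac1 to Hdac11), 7 sirtuins (Sirt1 to Sirt7), 9 lysine acetyltransferases, the 3 Ncoa coactivators and the BET readers Brd2 and Brd3. They are 32 of the 31053 genes in the deposited matrix, and all 32 were found by symbol.

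The material was mouse tumour tissue from a series on triple negative breast cancer and ACSS2 inhibitors. ACSS2 makes acetyl-CoA, the donor of acetyl groups for the writers, from acetate. Live cells of 3 ACSS2i-treated and 3 vehicle samples, 4000 to 6000 of each, were mixed and run on 1 droplet lane, from which transcripts and antibody tags were read in separate libraries. The strain is labelled NGS mouse for all samples; the series design names Bmal1 status, which no sample label gives. Ages, doses, times and the tumour line are not stated in these sources. The 6 samples carry antibody tags, named U2, U3 and U4 and D0, D1 and D4, and no label or file used here ties a tag to an arm. Treated and vehicle cells are therefore mixed in each cell class below, no ACSS2i comparison was made, and the tags stand as 6 samples of unknown treatment. Nothing used here says whether the samples came from separate animals.

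The matrix held 9747 barcodes and 187339115 transcript counts (unique molecular identifiers, UMIs). After filters on genes per barcode and mitochondrial share, 8784 barcodes were left. Cell classes were gated on raw UMIs of a few defining genes. The counts used 701 T cells (1411279 UMIs), 113 NK cells (428132 UMIs), 357 macrophages (1628085 UMIs) and 5212 tumour cells (139545308 UMIs), with median depths of 1609, 3291, 4120 and 25137.5 UMIs per cell. The T cell list reached 5198 CPM (UMIs scaled to a total of 1000000) in T cells, the NK list 4914 CPM in NK cells and the macrophage list 28480 CPM in macrophages. These lists include the genes of the gates, so their levels are set in part by the gating and do not test it. Tumour cells held Krt8 and Krt18, the genes of their gate, at 1042 CPM together. In them the epithelial genes Krt7, Krt19, Cldn4 and Epcam summed to only 3, 10, 0 and 1 UMIs. T cells also held 1098 CPM of a fibroblast list, which ran from 74.4 to 2969 CPM over the 6 tags. Tumour cells held 2628 CPM of that list, more than any immune class, and Dcn made up 2580 CPM of it. Col1a1 and Col1a2 were higher in T cells, at 418 and 339 CPM, against 29.2 and 5.08 CPM in tumour cells. Leaving out immune barcodes with Col1a1 and Col1a2 ended 1 call in the immune classes, that of Sirt2 in T cells (1.48). Tumour transcripts were present in immune barcodes at 6.25% of their tumour level in T cells, 1.97% in NK cells and 4.87% in macrophages, by Sox9, Hmga2 and Ereg, and at 8.41%, 3.77% and 5.78% by a longer list of 10 epithelial and tumour genes.

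Erasers and writers work in opposition on the same lysines. Class I deacetylases such as Hdac1 and Hdac2 are nuclear enzymes of repressor complexes, class IIa enzymes such as Hdac5 and Hdac7 shuttle between nucleus and cytoplasm and are known for roles in lymphocytes, vessels and muscle, and sirtuins need NAD+. Ep300, Crebbp and the Ncoa proteins are coactivators that transcription factors, nuclear receptors among them, bring to enhancers.

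Promoters are shown for 3 genes on which the results below turn: Ncoa1, which had the largest ratio to tumour cells in T cells and macrophages, Hdac5, which lay on opposite sides of tumour cells in T cells and macrophages, and Hdac2, which was lower in both. Each is 250 bases before the start of transcription and the 30 after it, from RefSeq on build GRCm38.p6. Capitals mark the E-box CACGTG, searched on both strands beside ETS (CCGGAAG) and CRE (TGACGTCA).

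Ncoa1, chr12:4477153-4477432, minus strand: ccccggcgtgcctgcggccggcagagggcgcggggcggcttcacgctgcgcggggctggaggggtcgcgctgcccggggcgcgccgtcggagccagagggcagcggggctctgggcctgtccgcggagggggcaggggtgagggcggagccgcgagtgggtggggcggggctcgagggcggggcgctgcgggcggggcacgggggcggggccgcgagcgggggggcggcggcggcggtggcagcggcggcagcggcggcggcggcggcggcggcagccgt
Hdac5, chr11:102230143-102230422, minus strand: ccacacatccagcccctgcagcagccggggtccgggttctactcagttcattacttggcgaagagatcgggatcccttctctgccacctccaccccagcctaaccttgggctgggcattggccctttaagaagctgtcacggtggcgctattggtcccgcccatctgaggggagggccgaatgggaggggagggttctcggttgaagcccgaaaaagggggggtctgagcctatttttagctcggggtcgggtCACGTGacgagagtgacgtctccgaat
Hdac2, chr10:36974294-36974573, plus strand: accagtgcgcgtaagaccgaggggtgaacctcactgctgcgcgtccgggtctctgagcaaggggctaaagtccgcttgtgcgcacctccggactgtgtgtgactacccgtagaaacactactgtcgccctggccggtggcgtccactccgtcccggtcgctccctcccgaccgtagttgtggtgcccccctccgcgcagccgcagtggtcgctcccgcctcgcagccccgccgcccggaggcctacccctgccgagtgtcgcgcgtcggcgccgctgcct

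The Ncoa1 window was 86.1% G and C with 48 CpG dinucleotides and held none of the 3 motifs, the Hdac2 window was 70% G and C with 34 CpG and held none, and the Hdac5 window was 60.4% G and C with 16 CpG and held the E-box at base 4 after the start. An exon of Mir8101 overlaps the Hdac5 window. Of the 32 genes, 26 had promoters in the table, with 38 windows. The E-box was in 3 of the 38 (Hdac5, Kat5 and Sirt1), against 6.79% of all 32851 windows, and ETS in 7 (Brd2, Kat5, Kat7, Kat8, Sirt3, Sirt6 and Sirt7), against 8.45%. CRE was in 0, against 1.74%. These matches describe letters and are not binding sites.

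Levels were compared as CPM of summed UMIs, class over tumour cells. A gene counted as higher or lower when the ratio passed 1.5-fold and its exact 95% interval left out 1, and as tested when at least 5 UMIs were expected in the smaller class at the pooled rate. All intervals cover counting error only. Direction in single tags is given where both classes had at least 20 barcodes, which holds for 6 tags in T cells, 3 in NK cells (U2, D0 and D1) and 4 in macrophages (U2, U4, D0 and D1). In T cells 6 of 28 tested genes of the list were higher than in tumour cells, against 21.2% of all 9422 genes tested, and 7 were lower, against 32.3%. In NK cells 0 of 18 were higher, against 13.1% of 6747 genes, and 3 were lower, against 34.6%. In macrophages 4 of 28 were higher, against 18.8% of 9639 genes, and 5 were lower, against 33%. The counts of higher genes in T cells and macrophages are near or below these shares, so they say nothing particular of the list, and what follows describes single genes and role groups.

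Each tagged sample holds immune and tumour cells, so the classes were also compared within tags, with edgeR's quasi-likelihood test on UMI sums per tag and class and the tag as a block. This test was added after the data were seen. Its p-values rest on a spread between these tagged samples that edgeR estimates by sharing information over genes. The tags leave 5 residual degrees of freedom in T cells, 2 in NK cells and 3 in macrophages. Very small p-values therefore do not measure agreement between tags alone. The p-values were Benjamini-Hochberg adjusted over all genes tested, with 0.05 as the threshold and no fold required. In T cells 8 of 28 genes of the list were higher, against 23.7% of all genes tested, and 6 were lower, against 29.5%. In NK cells, over 3 tags, 2 of 27 were higher, against 13.1%, and 3 lower, against 24.4%. In macrophages 8 of 28 were higher, against 25.9%, and 6 lower, against 28.4%. Of the 25 calls on pooled sums 24 passed within tags as well, and the exception was Kat2b in T cells. The test also passed 9 that the pooled rule had not: Ncoa1 and Ep300 higher in T cells, Sirt3 and Ncoa2 higher in NK cells, Ncoa1, Sirt2, Ep300 and Crebbp higher in macrophages, and Brd2 lower in macrophages.

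The pooled rate is nearly the tumour rate, so the minimum left out genes that are scarce in tumour cells. With no minimum, Ncoa1 was also higher in T cells and macrophages, Hdac9 in macrophages, and Sirt3, Sirt7 and Ncoa2 in NK cells. That made 7 higher in T cells (21.2% of all genes under the same rule), 3 in NK cells (12.8%) and 6 in macrophages (17%), with 7, 3 and 5 lower (15.5%, 12.5% and 16.5% of all genes). The median log2 ratio over the tested genes of the list was 0.30 in T cells, −0.56 in NK cells and −0.15 in macrophages, beside −0.22, −0.41 and −0.26 over all genes tested. Over all 32 genes, those below the minimum included, it was 0.30, −0.16 and −0.01, and the T cell value was 0.045 without tag U2 and 0.068 with the bare gates described next. In all, 16 of the 32 genes were called on pooled sums in at least 1 class with the minimum, 3 only without it, and 13 in none.

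These classes are narrower than the bare gates: immune barcodes with 3 or more Krt8 and Krt18 UMIs, barcodes of several tags and barcodes in more than 1 gate were set aside, since by the bare gates the 878 T, 155 NK and 514 macrophage barcodes held 4556741, 1256528 and 5407272 UMIs, several times those used here. With the bare gates 4 genes were higher and 0 lower in T cells, 3 higher and 3 lower in NK cells, and 4 higher and 2 lower in macrophages. The share of all genes called was not worked out for the bare gates, so these counts say nothing particular of the list. The genes higher in T cells and macrophages under both gates were Sirt7, Ncoa2 and Ncoa3. The 7 genes lower in T cells had ratios of 0.810 (Hdac2) to 0.961 (Brd2) with the bare gates, and none was called.

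**Figure D1:**
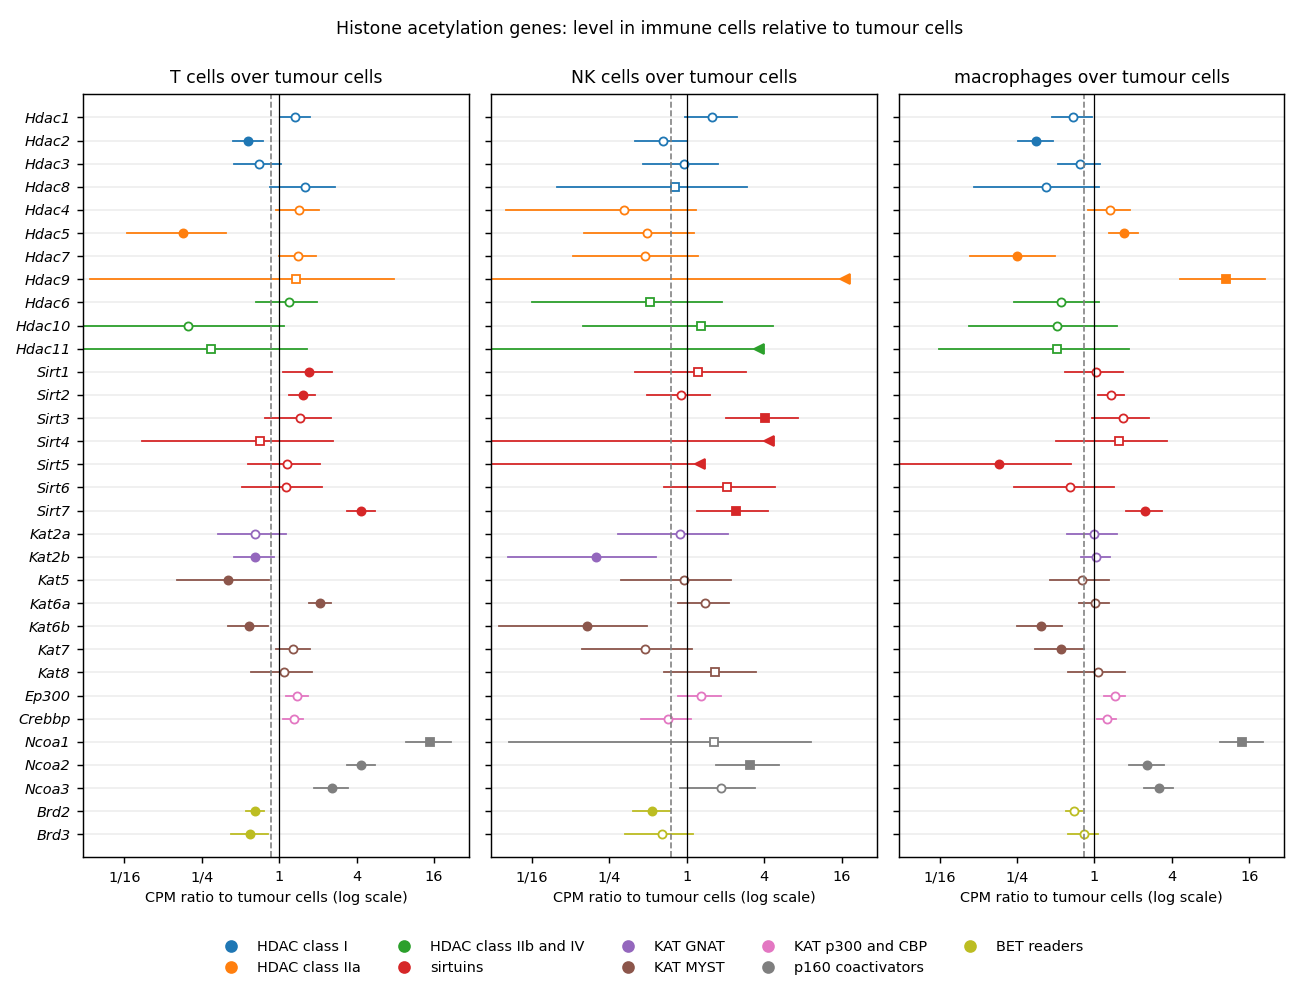
Ratio of CPM in T cells, NK cells and macrophages to CPM in tumour cells for each of the 32 genes (log scale), with exact 95% intervals. Filled symbols were called with or without the minimum, squares are genes below that minimum, left-pointing triangles mark upper bounds of genes at 0 UMIs, and the dashed line is the median over all genes tested; Ncoa1, Ncoa2 and Ncoa3 lie to the right of 1 in every panel, at 14.8, 4.35 and 2.56 in T cells.

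The Ncoa coactivators, which bind ligand-activated nuclear receptors and recruit Ep300 and Crebbp, stood highest against tumour cells. Summed over the 3 genes they reached 99.9 CPM in T cells, 58.4 CPM in NK cells and 87.8 CPM in macrophages, against 24.8 CPM in tumour cells. The ratios were 4.03 (interval 3.38 to 4.77), 2.36 (1.52 to 3.49) and 3.55 (2.98 to 4.19), and the sum was above tumour cells in every counted tag of each class. The next role group, the sirtuins, had 1.85 in T cells.

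Ncoa1 over the 6 tags had a lowest level of 7.87, a median of 21.6 and a highest of 54.3 CPM in T cells, against 1.002, 1.83 and 2.61 CPM in tumour cells. Macrophages held 33.8, 11.9, 5.33 and 18.8 CPM under tags U2, U4, D0 and D1, and NK cells 10.6, 0 and 0 CPM under U2, D0 and D1. The T cell and macrophage tags all lay above all tumour tags. Of these, T cells under D0 and macrophages under U4 and D0 held 1 UMI each. Their intervals reached below the tumour tags (0.199 to 43.9, 0.301 to 66.3 and 0.135 to 29.7 CPM), so these tags do not separate. NK cells held 1 UMI in all, too few to place them. The pooled levels were 21.3 CPM in T cells (30 UMIs), 20.3 CPM in macrophages (33 UMIs) and 1.43 CPM in tumour cells (200 UMIs), ratios of 14.8 (9.75 to 21.8) and 14.1 (9.47 to 20.5), both outside the minimum of the main rule. With the bare gates the ratios were 6.65 in T cells and 6.94 in macrophages, over 1.5 times smaller. Within tags edgeR gave folds of 13.7 in T cells (adjusted p = 9.75e-10) and 16.03 in macrophages (adjusted p = 6.87e-16). Against T cells, NK cells were lower (ratio 0.110, 0.00269 to 0.661).

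Ncoa2 had a lowest, median and highest tag of 7.87, 43.1 and 62.0 CPM in T cells, against 8.14, 10.6 and 13.6 CPM in tumour cells. Its NK levels were 53.2, 22.5 and 27.8 CPM and its macrophage levels 18.0, 0, 53.3 and 28.8 CPM in the tag orders above. T cells were above their own tag's tumour cells in 5 of 6 tags, NK cells in 3 of 3 and macrophages in 3 of 4; the exceptions were D0 in T cells, with 1 UMI, and U4 in macrophages, with 0. Pooled ratios to tumour cells were 4.35 (3.34 to 5.58) in T cells, 3.09 (1.68 to 5.20) in NK cells, where on pooled sums it was called only with no minimum, and 2.55 (1.85 to 3.45) in macrophages. They were 2.46, 1.75 and 1.59 with the bare gates. Within tags the edgeR adjusted p was 6.77e-07 in T cells, 0.0288 in NK cells and 6.19e-05 in macrophages.

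Ncoa3 ran from 22.4 through a median of 36.8 to 55.8 CPM in T cells, against 10.0, 12.4 and 16.9 CPM in tumour cells. Under the macrophage tags it stood at 27.0, 59.5, 58.7 and 41.3 CPM, and under the NK tags at 31.9, 33.7 and 16.7 CPM. The T cell and macrophage values did not overlap with the tumour values. The pooled ratio was 2.56 (1.86 to 3.42) in T cells and 3.18 (2.45 to 4.06) in macrophages, where its call held under all 22 alternatives, and 1.83 (0.877 to 3.38) in NK cells, which did not pass. Its T cell and macrophage ratios were 1.85 and 1.87 with the bare gates. The gene Sulf2, on the other strand, overlaps 154 bases of Ncoa3 and had T cell and macrophage ratios of 0.233 and 0.631, below 1.

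**Figure D2:**
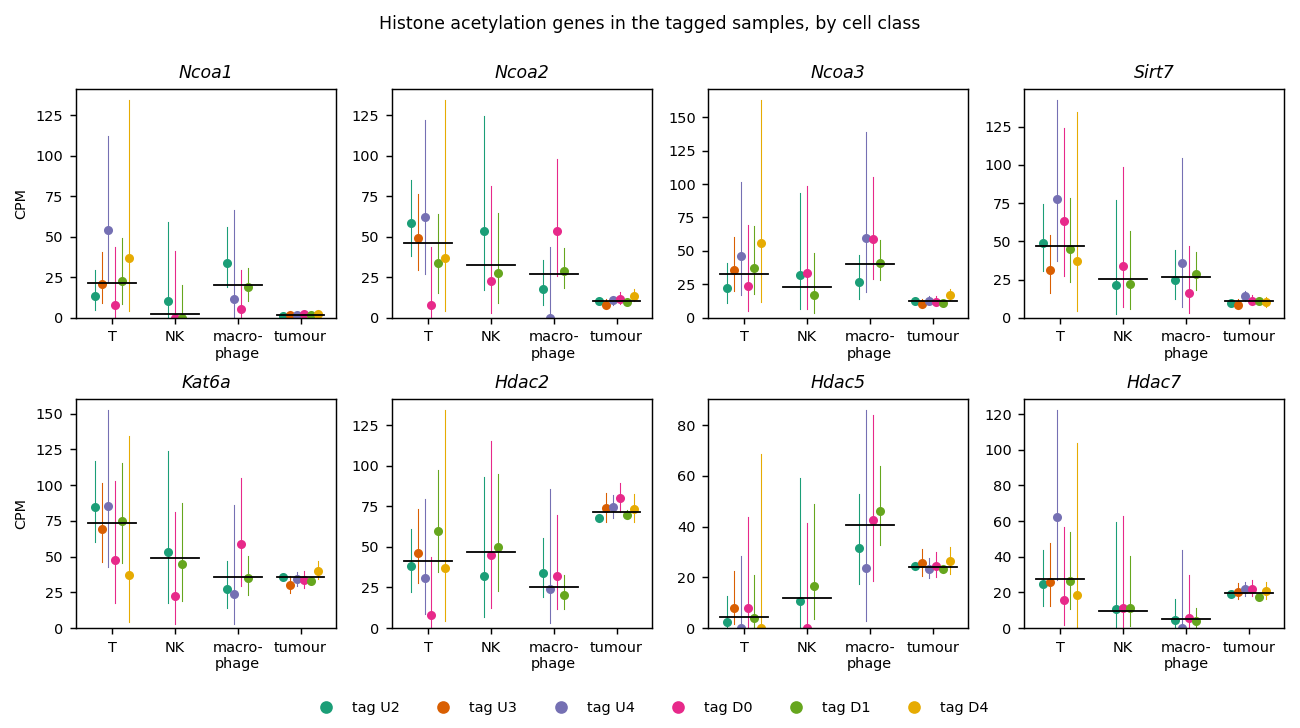
CPM of 8 genes in each counted tagged sample (points, exact 95% interval) by cell class, with the pooled level of the class as a black line. Ncoa1, Ncoa3 and Sirt7 of T cells and macrophages lie above their tumour cells in every counted tag, Hdac2 lies below, and Hdac5 splits T cells from macrophages.

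Sirtuins deacetylate proteins at the cost of NAD+; Sirt1, Sirt6 and Sirt7 are mainly nuclear, Sirt2 mainly cytoplasmic and Sirt3 to Sirt5 mitochondrial. The 7 genes summed to 143 CPM in T cells, 107 CPM in NK cells and 104 CPM in macrophages, against 77.5 CPM in tumour cells, ratios of 1.85, 1.39 and 1.34. The sum was above tumour cells in every counted tag.

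Sirt7, a nucleolar enzyme that acts on histone H3, had the largest ratio of the sirtuins in T cells and macrophages. Its lowest, median and highest tag were 30.9, 47.1 and 77.5 CPM in T cells, against 8.68, 10.4 and 14.2 CPM in tumour cells. NK cells had 21.3, 33.7 and 22.2 CPM, and macrophages 24.8, 35.7, 16 and 28.8 CPM. No immune tag fell within the tumour range. Pooled ratios were 4.35 (3.34 to 5.56) in T cells, 2.39 (1.19 to 4.29) in NK cells with no minimum, and 2.46 (1.77 to 3.32) in macrophages, and T cells were above macrophages (1.77, 1.19 to 2.66). With the bare gates the T cell and macrophage ratios were 2.41 and 1.63. Within tags the edgeR adjusted p was 1.47e-08 in T cells and 0.00017 in macrophages, and 0.182 in NK cells, where it did not pass. Sirt7 shares 124 bases with Mafg on the same strand; Mafg had ratios of 0.558 in T cells and 0.904 in macrophages, and the sources do not state how the authors' counting split such reads.

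Sirt1 and Sirt2 were higher in T cells by small margins. Sirt1 ran over 7.87, 15.7 and 31.0 CPM (lowest, median, highest tag) in T cells, against 5.43, 9.66 and 10.4 CPM in tumour cells, with a pooled ratio of 1.71 (1.08 to 2.57). Sirt2 ran over 36.1, 57.8 and 112 CPM, against 34.1, 35.2 and 37.99 CPM, with a ratio of 1.52 (1.20 to 1.90). The tag ranges of both genes overlapped with tumour cells. The Sirt1 call was lost without tag U4 (1.56) or D1 (1.44), and the Sirt2 call without U2 (1.43), U4 (1.41) or D4 (1.45). The bare gates ended both, at 1.38 and 1.27, while within tags both passed (edgeR adjusted p = 0.0283 and 0.0113). Sirt2 also passed within tags in macrophages, at a fold of 1.51 (edgeR adjusted p = 0.0185). Nfkbib overlaps 778 bases of Sirt2 on the other strand and had T cell and macrophage ratios of 1.82 and 1.53.

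Mitochondrial sirtuins differed by class. Sirt3, the main deacetylase of mitochondrial proteins, stood at 42.6, 45.0 and 16.7 CPM in the NK tags, against 5.77, 5.27 and 5.42 CPM in tumour cells of the same tags. All NK tags were above tumour cells, on 11 UMIs, and the ratio with no minimum was 4.08 (2.03 to 7.33), or 2.59 with the bare gates. It passed within tags (edgeR adjusted p = 0.0018). NK cells were also higher than T cells (2.79, 1.13 to 6.75) and macrophages (2.46, 1.04 to 5.57). Sirt3 overlaps Ric8a and Psmd13 on the other strand, with NK ratios of 2.001 and 1.21. Sirt5, which removes succinyl and malonyl groups, was lower in macrophages, with 2.25, 0, 0 and 1.25 CPM in the tags, against 6.38, 8.25, 6.02 and 6.58 CPM in tumour cells, a ratio of 0.181 (0.0219 to 0.657) on 2 UMIs, or 0.583 with the bare gates. Sirt4 and Sirt6 were called in no class by either test.

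Class I deacetylases comprise Hdac1 and Hdac2, the enzymes of the NuRD, Sin3 and CoREST complexes, Hdac3, the enzyme of the NCoR complex, and Hdac8. Of these 4 genes only Hdac2 was called against tumour cells. Hdac1, Hdac2, Hdac3 and Hdac8 summed to 107 CPM in T cells, 121 CPM in NK cells and 66.9 CPM in macrophages, against 132 CPM in tumour cells, with ratios of 0.812 (0.687 to 0.953), 0.922 (0.688 to 1.21) and 0.508 (0.417 to 0.613). The macrophage sum was below tumour cells in all 4 tags.

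Hdac2 was lower in T cells and macrophages. Its lowest, median and highest tag were 7.87, 37.6 and 60.0 CPM in T cells, against 67.7, 73.8 and 80.0 CPM in tumour cells. Macrophages held 33.8, 23.8, 32 and 20.04 CPM, and NK cells 31.9, 45.0 and 50.1 CPM. All 13 immune values lay below the lowest tumour value. Ratios were 0.574 (0.436 to 0.743) in T cells, 0.652 (0.398 to 1.01) in NK cells, which did not pass, and 0.352 (0.252 to 0.478) in macrophages. With the bare gates both calls ended, at 0.810 and 0.724.

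Hdac1, the close partner of Hdac2, was called in no class. It stood at 39.7 CPM in T cells, 46.7 CPM in NK cells and 20.3 CPM in macrophages, against 29.7 CPM in tumour cells. The macrophage ratio of 0.683 (0.469 to 0.960), below tumour cells in 3 of 4 tags, lay just short of the fold, and the gene was called lower there with free RNA taken off (0.6249) or without tag U4 (0.614). T cells (1.96, 1.25 to 3.11) and NK cells (2.30, 1.25 to 4.14) were both above macrophages. The background for T cells over macrophages was 22.5% higher and 19.2% lower; 9 of 28 genes of the list were higher (Hdac1, Hdac2, Hdac7, Hdac8, Sirt5, Sirt7, Kat6a, Kat7 and Ncoa2) and 2 lower (Hdac5 and Kat2b). For NK over macrophages it was 15.5% and 24.5%, with 3 of 20 higher (Hdac1, Hdac2 and Sirt3) and 5 lower (Hdac4, Hdac5, Kat2b, Crebbp and Ncoa1). For NK over T cells it was 5.99% and 14%, with 1 of 21 higher (Sirt3) and 7 lower (Hdac4, Hdac7, Kat2b, Kat6b, Kat7, Crebbp and Ncoa1).

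The class IIa enzymes Hdac5 and Hdac7 had opposite orders in T cells and macrophages. Hdac5, which represses MEF2 targets, had a lowest, median and highest tag of 0, 2.99 and 7.87 CPM in T cells, against 23.1, 24.5 and 26.3 CPM in tumour cells. Macrophages held 31.5, 23.8, 42.7 and 46.3 CPM. The T cell values all lay below the tumour values, 2 of them at 0 UMIs, and macrophages were above the tumour cells of their own tag in all 4 tags. Ratios were 0.178 (0.0651 to 0.387) in T cells, on 6 UMIs, and 1.69 (1.31 to 2.16) in macrophages. The macrophage call was lost without tag D1 (1.44) and with the bare gates (1.29), and the T cell call with the bare gates (0.849). The ratio of T cells to macrophages was 0.105 (0.0371 to 0.241).

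Hdac7, a class IIa enzyme known in mouse thymocytes, lay the other way. T cells had 15.7, 25.2 and 62.0 CPM as lowest, median and highest tag, against 17.2, 20.6 and 22.1 CPM in tumour cells, and overlapped with them. Macrophages held 4.51, 0, 5.33 and 3.76 CPM, below all tumour values, with a ratio of 0.250 (0.108 to 0.493) on 8 UMIs and 0.689, not called, with the bare gates. Slc48a1 overlaps 29 bases of Hdac7 on the other strand and had a macrophage ratio of 0.552. T cells exceeded macrophages 5.62-fold (2.59 to 13.9), and NK cells were below T cells (0.338, 0.0878 to 0.937). Hdac9, a further class IIa enzyme, was seen with 9 UMIs in macrophages (5.53 CPM), against 0.523 CPM in tumour cells, a ratio of 10.6 (4.65 to 21.2) with no minimum, or 4.88 with the bare gates, in 3 of 4 tags. Hdac4 was called in no class against tumour cells, and Hdac6, Hdac10 and Hdac11 likewise, at 0 to 10.6 CPM in the immune classes.

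Among the MYST acetyltransferases the paralogues Kat6a and Kat6b moved apart. Kat6a, known as MOZ and needed for blood stem cells in mice, reached a lowest, median and highest tag of 37.2, 72.3 and 85.3 CPM in T cells, against 30.1, 33.9 and 40.1 CPM in tumour cells. It was above tumour cells in 5 of 6 tags, with D4, at 2 UMIs, the exception. The T cell ratio was 2.08 (1.69 to 2.52), while NK cells had 1.38 (0.855 to 2.12) and macrophages 1.004 (0.761 to 1.30), neither passing. With the bare gates the T cell ratio was 1.48, just short of the fold. The T cell call was also lost when each barcode had to hold at least 1000 genes.

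Kat6b, or MORF, was lower in all 3 immune classes. It stood at 7.75, 23.9 and 55.8 CPM in T cells, against 36.1, 42.2 and 45.6 CPM in tumour cells, at 10.6, 11.2 and 5.56 CPM in NK cells, and at 18.0, 11.9, 21.3 and 11.3 CPM in macrophages. NK cells and macrophages lay wholly below the tumour range, and T cells did in 5 of 6 tags. Ratios were 0.579 (0.401 to 0.810) in T cells, 0.168 (0.0347 to 0.493) in NK cells, on 3 UMIs, and 0.384 (0.251 to 0.563) in macrophages. Setting the median ratio of all genes to 1 left the T cell ratio at 0.672 and ended its call, and the bare gates ended the T cell and macrophage calls (0.947 and 0.812) and left the NK ratio at 0.533.

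Kat7, the HBO1 enzyme of histone H3 and H4, was lower in macrophages, at 9.01, 0, 16 and 16.3 CPM in the tags, against 24.5, 23.3, 24.8 and 24.8 CPM in tumour cells, a ratio of 0.546 (0.341 to 0.827). The bare gates ended this call (0.844), and within tags it passed (edgeR adjusted p = 0.0359). Kat5, the catalytic subunit of the NuA4 complex, was lower in T cells, with a lowest, median and highest tag of 0, 4.45 and 18.6 CPM, against 10.9, 12.1 and 14.1 CPM in tumour cells. The tags overlapped, with U4 and D4 above their tumour cells on 2 and 1 UMIs. Pooled, it stood at 4.96 CPM (7 UMIs), against 12.3 CPM, a ratio of 0.402 (0.162 to 0.831); the call was lost without U2 (0.502) and with the bare gates (0.931), and within tags it passed narrowly (edgeR adjusted p = 0.0465). Kat5 shares 4006 bases with Rnaseh2c on the other strand, whose T cell ratio was 1.29. Kat8 passed in no class.

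The GNAT enzymes Kat2a and Kat2b are alternative acetyltransferases of the SAGA-type and ATAC complexes. Kat2b, or PCAF, held 23.4 CPM in T cells, 7.01 CPM in NK cells (3 UMIs) and 36.9 CPM in macrophages, against 35.9 CPM in tumour cells. Macrophages had a ratio of 1.03 (0.783 to 1.32). The T cell tags ran over 15.5, 22.9 and 39.4 CPM as lowest, median and highest, against 31.1, 38.3 and 41.4 CPM in tumour cells, and overlapped with them. The NK tags stood at 0, 11.2 and 5.56 CPM, all under the tumour range. Ratios were 0.652 (0.448 to 0.916) in T cells and 0.195 (0.0403 to 0.571) in NK cells, and the T cell call was lost without U2 (0.712) or U4 (0.677), with the bare gates (0.903) and within tags (edgeR adjusted p = 0.073). The bare gates left the NK ratio at 0.587, and within tags it passed (edgeR adjusted p = 0.00331). Kat2a passed in no class.

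Ep300 and Crebbp, the paired acetyltransferases of enhancers, did not reach the fold in any class on pooled sums. Ep300 stood at 70.1 CPM in T cells, 65.4 CPM in NK cells and 73.1 CPM in macrophages, against 50.9 CPM in tumour cells. It was above tumour cells in 6 of 6 T cell tags and 4 of 4 macrophage tags, with ratios of 1.38 (1.12 to 1.68) and 1.44 (1.19 to 1.72) under the fold. Setting the median ratio of all genes to 1 put both past it, at 1.60 and 1.72, and within tags both passed at folds of 1.49 in T cells (edgeR adjusted p = 0.0193) and 1.58 in macrophages (edgeR adjusted p = 0.00293). Crebbp stood at 89.3, 49.1 and 86.0 CPM in T cells, NK cells and macrophages, against 69.2 CPM in tumour cells, and within tags it was higher in macrophages at a fold of 1.39 (edgeR adjusted p = 0.0279). NK cells were below T cells in Crebbp (0.549, 0.329 to 0.876) and below macrophages (0.570, 0.342 to 0.906).

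The BET proteins bind acetylated histones through paired bromodomains and pass the signal to the transcription machinery. Brd2 and Brd3 together stood at 137 CPM in T cells, 119 CPM in NK cells and 154 CPM in macrophages, against 214 CPM in tumour cells, with ratios of 0.639 (0.552 to 0.737), 0.557 (0.415 to 0.733) and 0.718 (0.631 to 0.813). The sum was above tumour cells in no counted tag of any class.

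Brd2 ran over 38.8, 101 and 165 CPM (lowest, median, highest tag) in T cells, against 126, 173 and 185 CPM in tumour cells, with 117, 56.2 and 106 CPM in NK cells and 119, 83.3, 123 and 113 CPM in macrophages. NK cells and macrophages were below the tumour cells of their own tag in all tags, T cells in 5 of 6. It was lower in T cells (0.651, 0.552 to 0.762) and NK cells (0.536, 0.381 to 0.733) and missed the fold in macrophages (0.691, 0.596 to 0.796), where it was lower within tags at a fold of 0.702 (edgeR adjusted p = 0.0101). The T cell call lay at the edge of the fold: it was lost without U2 (0.686), U4 (0.686) or D1 (0.672), and with the bare gates (0.961); the NK call was lost with the bare gates too (0.771). H2-DMa, which overlaps 3094 bases of Brd2 on the other strand, stood at 28.3 CPM in T cells, 16.4 CPM in NK cells and 414 CPM in macrophages, against 1.56 CPM in tumour cells; the sources do not state whether the counting used strand. Brd3 was lower in T cells, with 18.8, 28.4 and 55.1 CPM, against 40.3, 46.3 and 48.2 CPM in tumour cells, a ratio of 0.596 (0.419 to 0.822), or 0.886 and not called with the bare gates.

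To compare how many cells showed a gene, each cell was thinned to 1000 UMIs, which left 656 T cells, 111 NK cells, 351 macrophages and 5197 tumour cells. Sirt7 was then seen in 4.42% of T cells (2.98 to 6.29), 0.901% of NK cells and 2.28% of macrophages (0.989 to 4.44), against 1.12% of tumour cells (0.849 to 1.44). Kat6a was seen in 8.54% of T cells (6.51 to 10.9) and 8.11% of NK cells (3.77 to 14.8). It was seen in 3.99% of macrophages, against 3.12% of tumour cells (2.66 to 3.63). Ncoa2 was seen in 3.96% of T cells, 4.5045% of NK cells (1.48 to 10.2) and 2.28% of macrophages, against 1.25% of tumour cells. Hdac5 was seen in 0.152% of T cells (1 cell) and 4.56% of macrophages (2.63 to 7.30), against 2.31% of tumour cells (1.92 to 2.75). Krt8, which immune cells should lack, was seen in 6.10% of T cells, 5.41% of NK cells and 3.70% of macrophages, against 47.5% of tumour cells. Cd3e was seen in 44.4% of T cells, against 0 of 5197 tumour cells. Krt8 and Cd3e are genes of the gates. Immune barcodes with 3 or more keratin UMIs and barcodes in several gates were also left out. These shares are therefore set in part by the selection. No class here is known to lack Sirt7, Ncoa2 or Kat6a. At the level of the 10-gene list, tumour RNA would give 2.01 CPM of Hdac5 in T cells, against 4.25 CPM measured there. For Sirt7, Ncoa2 and Kat6a it would give 0.905, 0.890 and 2.98 CPM, against 46.8, 46.1 and 73.7 CPM measured. A gene higher than in tumour cells must exceed such a share, so for these 3 genes the comparison decides nothing. Unthinned, Sirt7 was seen in 8.99% of T cells and 23.9% of tumour cells, at median depths of 1609 and 25137.5 UMIs.

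Within tumour cells the genes differed little between the tagged samples. Of the 32 genes, 31 had enough UMIs to compare, and their median ratio of highest to lowest tag was 1.38, beside 1.40 over 10578 genes. Only Ncoa1 exceeded 2-fold (2.60, with 1.002 CPM under U2 and 2.61 CPM under D4), against 14.7% of all genes. Brd2 split the tags: it stood at 128 CPM under U3 and 126 CPM under U4, against 174, 185, 177 and 173 CPM under U2, D0, D1 and D4. A list of stress genes stood at 4059 and 3031 CPM under U3 and U4, and at 4763, 4469, 4174 and 3643 CPM under U2, D0, D1 and D4; its part in the Brd2 levels was not tested.

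**Figure D3:**
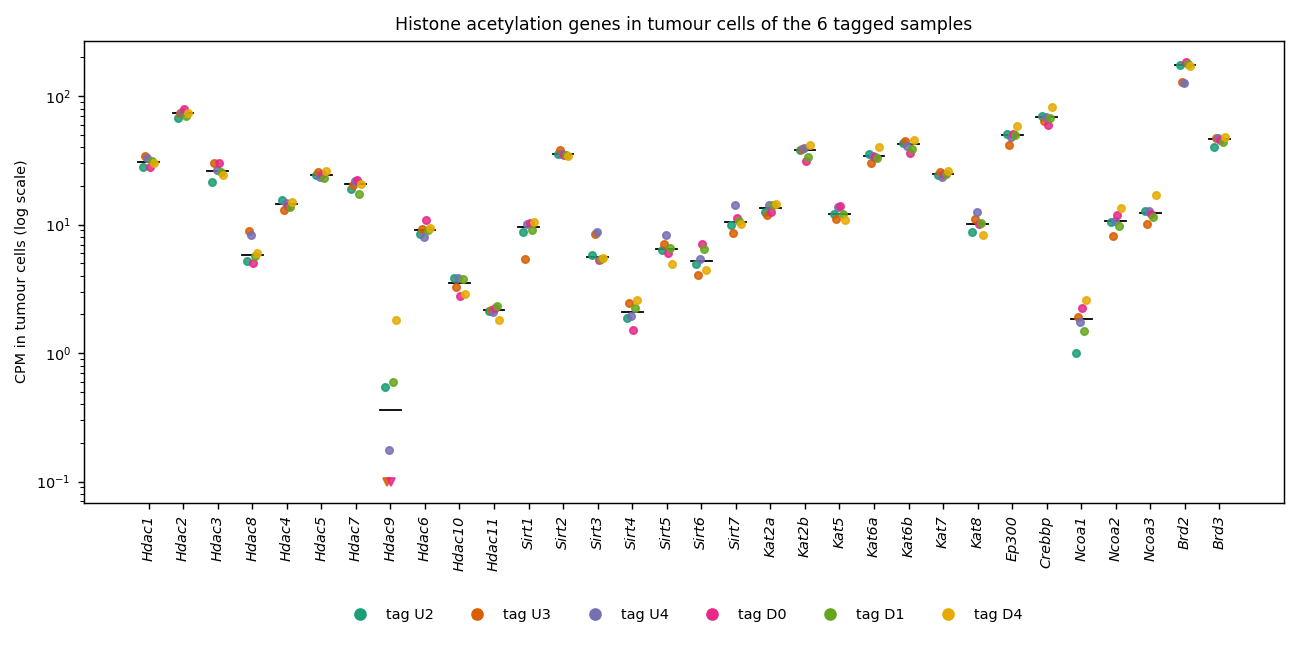
CPM (log scale) of the 32 genes in tumour cells of each of the 6 tagged samples, with the median as a line; downward triangles at the floor are 0 UMIs. Most genes hold within a narrow band, Brd2 has U3 and U4 apart at 128 and 126 CPM, and Sirt1 has U3 apart at 5.43 CPM.

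Tumour cells in division were set against those with no sign of it to see whether the genes moved with the cell cycle. Cycling cells (809 barcodes with at least 3 Mki67 and Top2a UMIs after thinning to 5000) had a median of 35181 UMIs, against 23410 in 3591 other cells with none; 709 barcodes with 1 or 2 such UMIs and 103 shallower ones were in neither group. Of the 32 genes 1 was higher, against 12.4% of 12941 genes, and 2 were lower, against 8.14%. Their median log2 ratio was 0.05, equal to that of all genes tested.

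Kat2a, which acetylates histone H3 at promoters of growth genes, was higher in cycling cells at 17.5 CPM, against 11.1 CPM in other tumour cells, a ratio of 1.57 (1.41 to 1.75). Under tags U2, U3, U4, D0 and D1 it stood at 17.5, 13.7, 13.1, 17.5 and 19.4 CPM in cycling cells, against 10.3, 10.98, 13.7, 9.95 and 11.5 CPM in the others, above in 4 of 5. Hdac11 was lower, at 0.994 CPM in cycling cells, against 2.94 CPM in the others (0.338, 0.222 to 0.497). That fall was not shared by the tags: cycling cells had 0.102 and 1.18 CPM under U2 and D1, against 2.80 and 2.81 CPM, but were above the others under U3, U4 and D0. Hdac9 was lower on 7 UMIs, at 0.240 CPM, against 0.654 CPM.

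Kat7, Hdac1 and Hdac2 lay above the other cells in at least 4 of 5 tags but short of the fold. Kat7 had 31.95 CPM in cycling cells, against 21.9 CPM (1.46, 1.35 to 1.58, above in 5 of 5 tags), Hdac1 38.5 CPM, against 26.7 CPM (1.44, 1.34 to 1.55, 4 of 5), and Hdac2 86.1 CPM, against 65.0 CPM (1.32, 1.26 to 1.39, 5 of 5). Kat6a was above in 5 of 5 tags too (1.17, 1.10 to 1.26). Below in 5 of 5 tags were Sirt2, with 31.3 CPM in cycling cells, against 38.8 CPM (0.806, 0.748 to 0.867), Kat6b, with 36.3 CPM, against 44.2 CPM (0.820, 0.765 to 0.878), and Ncoa1 (0.892, 0.608 to 1.28). None of these passed the call rule. Other genes of the pathway had 13 of 118 higher and 0 lower, among them Esco2, Hat1 and Atad2, beside the same background.

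**Figure D4:**
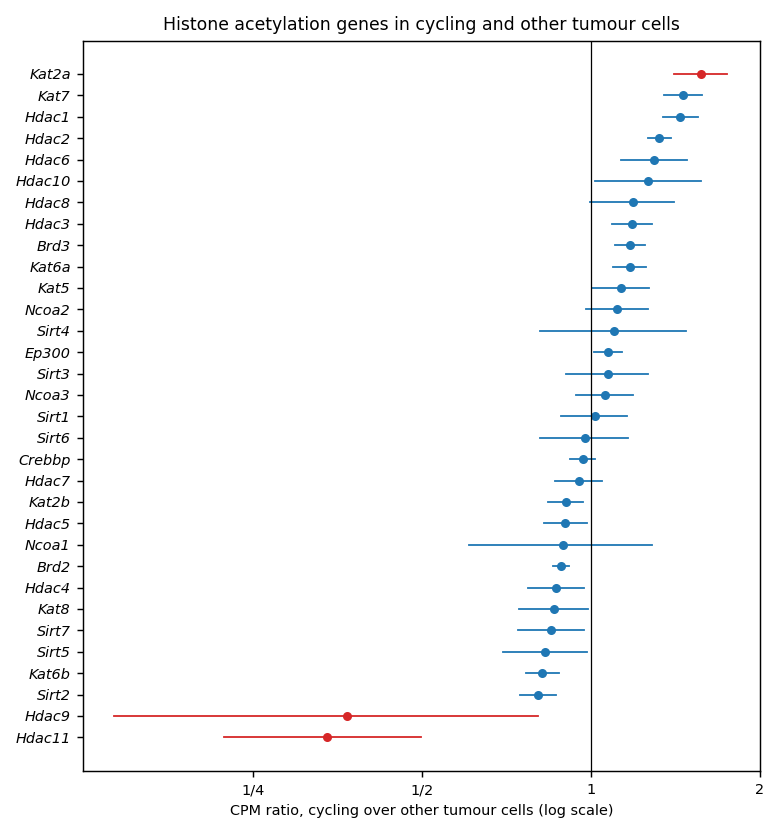
Ratio of CPM in cycling to other tumour cells for the 32 genes (log scale) with exact 95% intervals, sorted; red genes were called. Kat2a stands at 1.57 at the top and Hdac11 at 0.338 at the bottom, and the genes between lie within 1.5-fold apart from Hdac9.

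Subsets of the immune classes added few calls. Regulatory T cells (62 barcodes with Foxp3) had Hdac1 higher at 83.1 CPM (12 UMIs), against 34.7 CPM in the other 639 T cells, a ratio of 2.39 (1.15 to 4.61). It was the 1 of 9 tested genes called, against 12.9% of genes higher and 5.93% lower, and 1 tag allowed a comparison. With no minimum Kat2b was higher too, at 76.1 CPM (11 UMIs), against 17.4 CPM, a ratio of 4.38 (1.92 to 9.43), beside 6.19% of genes higher and 1.92% lower under that rule. CD8 T cells (299) differed from the other 402 in 0 of 24 tested genes, against 3.23% of genes higher and 8.32% lower. Macrophages with at least 3 Arg1 UMIs (207) differed from the 91 with none in 0 of 17, against 4.65% and 6.66%; with no minimum Hdac6 was lower (0.130, 0.0123 to 0.792, on 2 UMIs), beside 2.4% of genes higher and 5.52% lower. At this depth differences under the widths of such intervals were not detectable.

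The rest of the pathway was followed in a list of 121 other genes (complex subunits, further acetyltransferases and acetyl-lysine readers), of which 120 were measured. In T cells 34 of 115 tested were higher and 14 lower, in NK cells 14 of 97 and 17, and in macrophages 17 of 116 and 24, beside the same background shares as above. Over the 120 measured genes, those below the minimum included, their median log2 ratios were 0.20, −0.02 and −0.14. Over the tested genes they were 0.20, −0.06 and −0.15. T cells led with Atad2b, an ATPase with a bromodomain, at 58.8 CPM, against 12.1 CPM in tumour cells (4.87, 3.86 to 6.07), with Esco1, a cohesin acetyltransferase, at 75.1 CPM, against 15.6 CPM (4.81, 3.92 to 5.85), and with Mta3, a NuRD subunit, at 3.84. The lowest were Rcor2, a CoREST subunit, at 0.131 on 2 UMIs, Kansl2 at 0.264 and Morf4l2 at 0.282, both subunits of acetyltransferase complexes.

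NK cells shared several of these. Esco1 (3.89, 2.54 to 5.72), Baz1a, a chromatin remodelling subunit (3.72, 2.70 to 4.997), and Atad2b (3.48, 2.06 to 5.52) were the highest, and Sap18 at 0.116 on 1 UMI, Kansl2 at 0.129 and Rcor3 at 0.259 the lowest. Macrophages led with Baz1a at 92.1 CPM, against 27.7 CPM in tumour cells (3.33, 2.81 to 3.92), Brpf1, a scaffold of the Kat6a and Kat6b complexes (2.94, 2.19 to 3.87), and Atad2b (2.64, 1.97 to 3.48). Rcor2 (0.0570 on 1 UMI), the YEATS reader Mllt3 (0.165, 0.0789 to 0.303) and Kansl2 (0.280, 0.193 to 0.393) were their lowest. All 3 immune classes were set against the same tumour cells, so their ratios share that denominator.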

How the data were processed

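The authors deposited 1 matrix of raw UMI counts for genes and antibody tags, with no normalization; per the submitters' processing notes the tool was Cell Ranger and the build mm10. Software version 3.1.0 stands in the matrix, per the file headers. The sources do not state the annotation or whether counting used strand. The 32 genes and the other lists were chosen with earlier results of these data known.

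Barcodes were kept from 500 genes upward and below a mitochondrial share of 15%. Tags were called with HTODemux (Seurat 5.3.0, R 4.3.3, positive quantile 0.99, seed 42): 5590 barcodes had 1 tag, 2329 none, and 865 several, which were removed as doublets. Doublets of 1 tag stay in, and no other doublet caller was run. In the classes used, 1850 of 5212 tumour cells, 0 T cells, 1 NK cell and 0 macrophages had no tag. Part of the tumour side of each pooled ratio thus belongs to no tagged sample. The mix of tags also differed: U3 held 210 of 701 T cells and 148 of 5212 tumour cells. With 1-tag barcodes alone 0 calls were lost and 1 was added. Gates were Krt8 and Krt18 at 3 or more with no Ptprc (tumour), Cd3d, Cd3e and Cd3g at 2 or more (T), Ncr1 and Klrb1c at 1 or more with no Cd3 gene (NK), and C1qa, C1qb and C1qc at 3 or more (macrophage). Immune barcodes with 3 or more keratin UMIs and barcodes in several gates were left out, and 1525 barcodes passed no gate. No barcode occurred more than once.

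UMIs were summed per class and scaled to CPM over all genes. CPM has an exact Poisson 95% interval and a ratio an exact conditional binomial (Clopper-Pearson) one (scipy 1.17.1, Python 3.11.15). Within tags, UMI sums per tag and class were tested with edgeR 4.0.16 (filterByExpr, TMM, quasi-likelihood F-test, tag as a block) over tags with at least 20 barcodes in both classes; the tag pairs the sums because both come from the same sample. Tests of both on simulated counts recovered most of the genes changed 2-fold. For the pooled rule the changed genes had at least 20 expected UMIs, with counting error only. For edgeR they had at least 5 expected UMIs in the median immune tag. Genes with fewer, many of this list in NK cells among them, were not covered. Text values by tag follow a rule: each gene called in at least 1 class is given by tag, and of the other pathway genes the 3 highest and 3 lowest called per class are named. Alternatives covered gates, scaling, the fold, the minimum, free RNA and leaving out each tag. All depths are in UMIs, and the number of UMIs behind a gene sets its precision. Gene overlaps came from GENCODE on GRCm38, to which 30934 of 31053 gene identifiers matched.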

Additional observations from a re-analysis of the deposited data

Results flagged for a closer look

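Over the tags, 87 sets of 4 to 6 values were looked at for a highest or lowest tag standing apart from the rest, and 9 did. The limit used would flag about 1 in 20 sets of normal values of equal precision. Levels from few UMIs at unequal depths are not such values, so 9 of 87 cannot be read as an excess. In tumour cells Sirt1 was lowest under U3 at 5.43 CPM and Sirt2 highest under U3 at 37.99 CPM. The same gap was seen in 6.38% of all genes compared in tumour cells.

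In T cells Hdac7 was highest under U4 at 62.0 CPM (8 UMIs), Hdac10 under U2 at 2.24 CPM (1 UMI), and under D4 Kat2a and Kat8 each at 37.2 CPM (2 UMIs) and Ep300 at 186 CPM (10 UMIs). Tag D4 held 30 T cells and 53794 UMIs, the fewest of the 6. In macrophages Hdac1 was highest under U4 at 59.5 CPM (5 UMIs) and Sirt6 under D0 at 16 CPM (3 UMIs).

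Hdac5 lay below tumour cells in all 6 T cell tags and above them in all 4 macrophage tags, with a ratio of T cells to macrophages of 0.105. That difference between the classes was not tested across samples.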

How the results depend on the processing

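The 22 alternatives were the bare gates, several-tag barcodes kept, 1000 genes per barcode, 1-tag barcodes alone, 2 other scalings, a fold of 2, 20 expected UMIs, no minimum, free tumour RNA taken off, each tag left out, and 6 settings added after the data were seen (edgeR within tags, a minimum at the mean of the class rates, free RNA from Sox9, Hmga2 and Ereg with and without that minimum, and leaving out Col1a1 and Col1a2 barcodes or immune barcodes over 10000 UMIs). Of 25 calls against tumour cells, 0 reversed under any of them, 24 were lost under at least 1, and Ncoa3 in macrophages was kept under all. The bare gates gave 0 lower in T cells, 3 higher in NK cells with a median log2 ratio of −0.035, and 2 lower in macrophages. Keeping several-tag barcodes gave 1 higher in NK cells. With 1000 genes per barcode 3 were lower in T cells and the NK median was −0.301. That setting ended the T cell calls of Sirt1, Kat6a, Kat2b, Kat5, Brd2 and Brd3. Setting the median ratio to 1 gave 10 higher and 3 lower in T cells, 4 higher in NK cells (median 0.24) and 8 higher in macrophages (median 0.25). Leaving ribosomal protein and mitochondrial genes out of the total gave 10 higher and 4 lower in T cells and 3 higher in NK cells (median 0.078). A fold of 2 left 2 lower in T cells, and 20 expected UMIs left 2 higher in T cells, 1 lower in NK cells and 2 higher in macrophages, as both settings are stricter. No minimum, a minimum at the mean rate, and that minimum with free RNA taken off each gave 3 higher in NK cells, since more genes were tested. Leaving out each tag gave 4 to 7 lower in T cells (4 without U2) and an NK median of −0.306 (without D0) to −0.057. For the other shifts the cause was not tested. Beyond the main rule, shares of all genes were worked out only for no minimum, the minimum at the mean rate and edgeR. At the mean rate 22.5% of all genes were higher in NK cells. Counts under the remaining settings have no such background and say nothing particular of the list. With the tag as a block, edgeR kept 24 of the 25 calls and gave 2 higher in NK cells and 8 in macrophages. Depth limits the NK class most: 14 of the 32 genes were below its minimum, and 3 UMIs or fewer stand behind several of its values, so levels there are rough. Arm, sample and cell composition cannot be told apart in the class sums, and Sirt2 in T cells was lost under 10 alternatives and Brd2 in T cells under 9.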
